A study of Oryctolagus cuniculus with 4 samples.

Results

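CA9 (ENSOCUG00000010187) encodes carbonic anhydrase 9, an enzyme of the cell surface. It was examined as 1 of the 21139 genes in the count table, and it was chosen by its name in that table and with its levels in the 4 sections already known, so its levels between sections are given as a description. The data are Visium 3′ spatial transcriptomes, made from tissue cut onto slides with printed, barcoded spots that bind polyadenylated RNA, where each bound molecule is counted once by its UMI (unique molecular identifier). A spot is a small region that can hold parts of several fibers and other cells. The study asked what such data can add in a rabbit model of rotator cuff tear, where cutting the tendon (tenotomy) unloads the supraspinatus muscle, and whether stored tissue can be used.

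All sections came from the posterior distal belly of the supraspinatus of skeletally mature female New Zealand White rabbits. All muscles were snap-frozen in isopentane cooled by liquid nitrogen and kept at low temperature, and no transgene or drug was used. The 4 sections, 1 of each kind, were fresh healthy muscle, healthy muscle that had been stored for 6 years, and muscle stored equally long that had been harvested at 2 or at 16 weeks after tenotomy. Values of all 4 sections are given below in this order (fresh healthy, stored healthy, 2 weeks, 16 weeks). By their sample labels, the stored healthy and 16-week sections were the right and left muscle of 1 animal, and the fresh healthy and 2-week sections came from 1 further animal each. With 1 section per condition no test was possible between conditions, and the intervals below are exact 95% intervals that cover counting error only. Animal, side, storage, fiber composition and condition cannot be told apart where they change together.

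Carbonic anhydrases convert carbon dioxide and water to bicarbonate and a proton. CA9 spans the plasma membrane with its catalytic domain outside the cell, where it helps to set the pH of the surrounding fluid, and it is widely known as a gene induced in low oxygen by the hypoxia-inducible factors. In skeletal muscle, membrane-bound carbonic anhydrases aid the removal of carbon dioxide and lactic acid, while the cytosolic enzyme CA3 is abundant in slow fibers.

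The sections held 6970 spots in all and between 4079313 and 12536450 UMIs each. The median spot held 3589.5, 5195, 4588 and 2090 UMIs. Mitochondrial RNA (37 genes) made up 49.3% and 49.2% of UMIs in healthy muscle, fresh and stored, and 33.8% and 34.6% at 2 and 16 weeks. All 4 sections held abundant MYH1 and MYH7, a fast and the slow myosin heavy chain of muscle fibers. MYH7 had 23662, 128627, 31584 and 75719 UMIs, against 140694, 103154, 190989 and 36093 UMIs of MYH1.

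CA9 was a low-count gene, with 584 UMIs over the 4 sections. The fresh healthy section held 333 CA9 UMIs (interval 298 to 371), or 0.475 (0.425–0.528) per 10000 UMIs of all genes. The stored healthy section held 207 (180 to 237), or 0.165 (0.143–0.189) per 10000. The tenotomized sections were lower still. The 2-week section held 34 UMIs (23.5 to 47.5), or 0.0833 (0.0577–0.116) per 10000, and the 16-week section held 10 (4.80 to 18.4), or 0.0211 (0.0101–0.0388) per 10000. The order of the levels was therefore fresh healthy, stored healthy, 2-week and 16-week, and the counting intervals of neighbors in this order did not overlap. Fewer cells that hold CA9 RNA and less CA9 RNA per cell cannot be told apart in such spots.

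**Figure D1:**
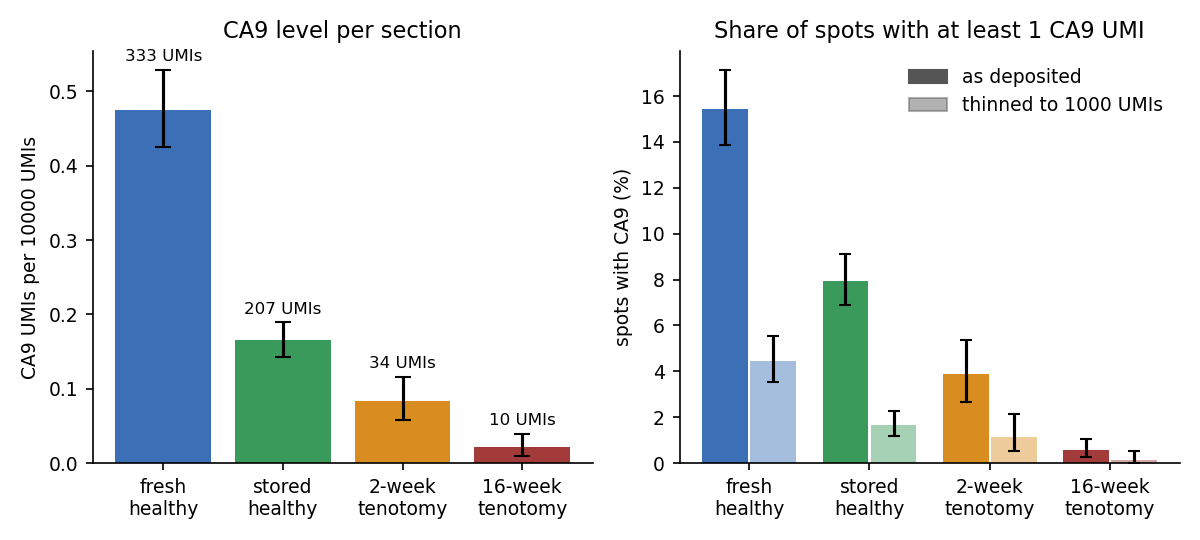
CA9 in each of the 4 sections. Left, CA9 UMIs per 10000 UMIs of all genes, with the UMI sum above each bar. Right, percent of spots with at least 1 CA9 UMI, as deposited (dark) and after thinning to 1000 UMIs per spot (light). Error bars are exact 95% intervals for counting error (Poisson left, binomial right). The level goes from 0.475 in the fresh healthy to 0.0211 in the 16-week section, and the thinned shares of the stored healthy and 2-week sections overlap.

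Spots with CA9 were a minority in every section. In fresh healthy muscle 301 spots had at least 1 CA9 UMI (15.4%, Clopper-Pearson interval 13.9–17.1), and stored healthy muscle had 194 such spots (7.95%, 6.91–9.10). At 2 weeks there were 33 (3.86%, 2.67–5.38) and at 16 weeks 10 (0.579%, 0.278–1.06). Shares as deposited depend on depth, and the median UMIs of spots with and without CA9 were 4850 and 3327, 5560 and 5168.5, 5122 and 4570, and 5962.5 and 2069.5, section by section. Each spot was therefore also thinned to 1000 UMIs, which left out 266, 93, 53 and 352 shallower spots. After thinning, CA9 was left in 75 of 1684 fresh healthy spots (4.45%, 3.52–5.55) and 39 of 2347 stored healthy spots (1.66%, 1.18–2.26). It was left in 9 of 801 spots at 2 weeks (1.12%, 0.515–2.12) and in 2 of 1374 at 16 weeks (0.146%, 0.0176–0.525). At equal depth the fresh healthy section stayed above the other 3, whereas the stored healthy and 2-week intervals overlapped, as did, narrowly, those at 2 and 16 weeks.

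CA9 UMIs were spread thinly over spots. Of the 538 spots with CA9, 496 held a single UMI, and no spot held more than 3. Spots with 3 UMIs were found only in healthy muscle, 3 in the fresh and 1 in the stored section. The variance of CA9 UMIs across spots divided by their mean was 1.04, 1.05, 1.02 and 0.994. At such low means this ratio lies near 1 whatever the layout of the spots, so it does not show whether CA9 was clustered. Shallow spots held none, with 0 CA9 UMIs in the 166, 60, 31 and 134 spots under 500 UMIs. These spots held only 42453, 14246, 8465 and 39340 UMIs of all genes together, too few to show a lower CA9 level.

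Between sections, CA9 in stored healthy muscle was 2.87-fold (2.41–3.43) lower than in fresh healthy muscle relative to section totals, a log2 ratio of -1.52 (-1.78 to -1.27). For comparison, 6.53% of the 2449 genes with at least 200 UMIs were at least 2-fold lower in that comparison, the median gene had a log2 ratio of -0.05, and 40 genes (1.63%) lay below CA9. Storage, the animal and the fiber composition changed together between these sections, and their parts in the difference cannot be told apart. The share of MYH7 differed with them, since MYH7 had a log2 ratio of 1.61 and MYH1 of -1.28. Among spots with a MYH7 share of MYH1+MYH7 UMIs under 0.25 the CA9 log2 ratio was -1.60 (-2.10 to -1.13), and in spots with a share of 0.75 or more, with 1 CA9 UMI in fresh healthy muscle, it was -0.041 (-2.57 to 5.29). Relative to MYH1+MYH7 UMIs it was -1.18 (-1.44 to -0.93).

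CA9 at 2 weeks after tenotomy was 1.98-fold (1.37–2.94) lower than in stored healthy muscle, a log2 ratio of -0.99 (-1.55 to -0.46). Only 1.39% of 2366 genes were at least 2-fold lower, a threshold that CA9 just missed, and 35 genes (1.48%) lay below it. The median gene was higher at 2 weeks, by 0.51 on the log2 scale, and relative to the median gene the CA9 ratio was -1.50. The ratio depended on the spots and the total used, and no test compared these settings. It was -1.37 (-1.94 to -0.84) with mitochondrial genes left out of the totals and -0.85 (-1.43 to -0.31) in spots with at least 50 myosin UMIs. Among spots with a MYH7 share under 0.25 it was -0.72 (-1.44 to -0.01). Among spots without COL1A1, the gene of type I collagen, the log2 ratio was -0.19 (-1.004 to 0.54), an interval that includes both no difference and the ratio over all spots. With spots thinned to 1000 UMIs it was -0.64 (-1.86 to 0.43), which includes no difference too. Only 1 CA9 UMI was found at 2 weeks among spots with a MYH7 share of 0.75 or more, where the ratio was 0.071 (-5.26 to 2.60), so no direction can be read there. Relative to MYH1+MYH7 UMIs in place of all UMIs, the ratio was -2.55 (-3.12 to -2.02), with MYH1 itself at 2.51.

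CA9 at 16 weeks was 7.83-fold (4.17–16.6) lower than in stored healthy muscle of the opposite side of the same animal, a log2 ratio of -2.97 (-4.05 to -2.06). The median gene was higher at 16 weeks by 0.77, and relative to it the CA9 ratio was -3.74. Of 2560 genes, 1.76% were at least 2-fold lower, and 2 genes (0.0781%) lay below CA9. These were NDUFAF2, an assembly factor of respiratory complex I, and MMP12, the macrophage elastase. NDUFAF2 had 1 UMI at 16 weeks and 381 in stored healthy muscle, and MMP12 had 12 and 255. CA9 reached the minimum count for ranking through stored healthy muscle, with 207 UMIs there and 10 at 16 weeks. It was also chosen with these levels known. Its ranks in the comparisons of sections are therefore a description and do not test whether CA9 is unusual among genes. The ratio kept its sign with an interval below 0 in spots with a MYH7 share of 0.75 or more (-2.29, -3.66 to -1.16), in spots with at least 50 myosin UMIs (-2.51, -3.66 to -1.54), in spots without COL1A1 (-3.03, -4.27 to -2.02) and after thinning (-3.59, -6.68 to -1.64). In spots with a MYH7 share under 0.25 it was -2.05 (-7.39 to 0.51), from 1 CA9 UMI at 16 weeks. All these settings use parts of the same 10 UMIs at 16 weeks, so they are no separate support for the ratio. The MYH7 share of 0.75 or more kept 7 of them, spots without COL1A1 kept 8, and thinning left 2 spots with CA9.

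The 16-week section was also 3.95-fold (1.91–8.97) lower in CA9 than the 2-week section, a log2 ratio of -1.98 (-3.17 to -0.93), and 4.87% of 2176 genes were at least 2-fold lower. With 44 UMIs in both sections together CA9 did not reach the 200 UMIs asked of those genes and was not ranked among them. Both tenotomy ratios use the same stored healthy section. Relative to MYH1+MYH7 UMIs instead of all UMIs, the ratio of 16 to 2 weeks was -0.77 (-1.95 to 0.28), while MYH1 was the more abundant myosin at 2 weeks and MYH7 at 16 weeks.

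**Figure D2:**
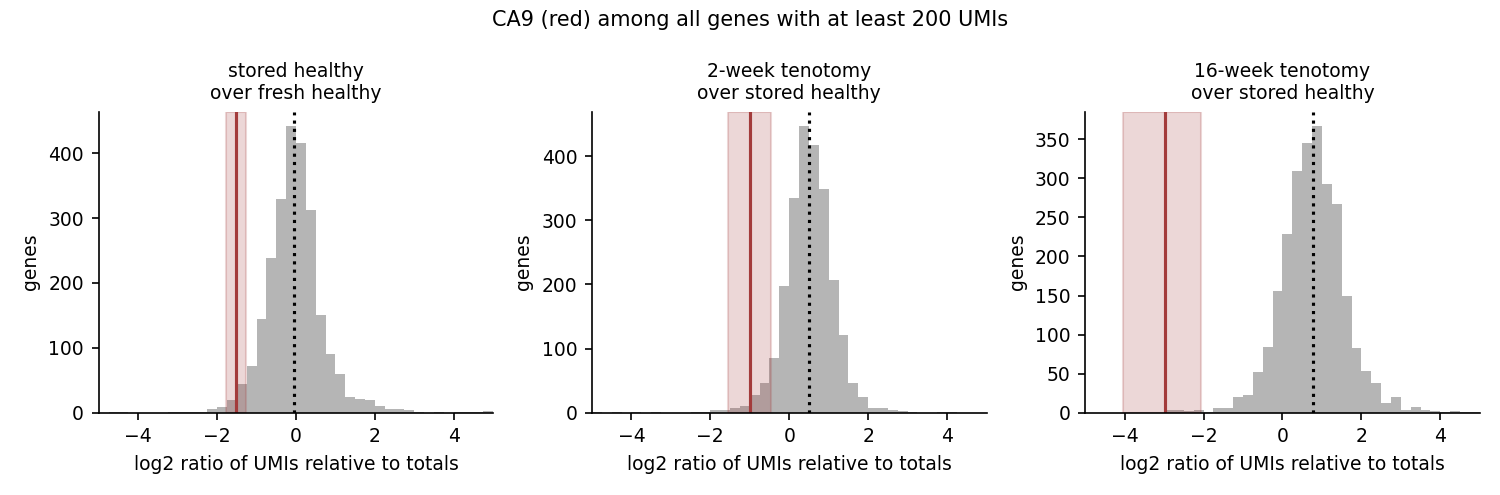
Distribution over genes with at least 200 UMIs of the log2 ratio of UMIs relative to section totals, for 3 comparisons of sections. The red line and band give CA9 with its 95% counting interval, and the dotted line the median gene. CA9 lies at -1.52, -0.99 and -2.97, in the lower tail of each histogram, while the median gene lies at -0.05, 0.51 and 0.77.

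The spots of each section were next grouped by their share of MYH7, among spots with at least 10 MYH1+MYH7 UMIs. MYH2, the type 2a myosin, had 0 features of that name, and MYH4, another fast myosin, is not part of the share. The share therefore does not resolve all fiber types. CA9 was present over the whole range of the MYH7 share in stored healthy muscle, where all parts of the range were well filled. There it was 0.151 per 10000 UMIs under a share of 0.25 (43 UMIs in 576 spots), 0.189 from 0.25 to 0.5 (60 in 621), 0.179 from 0.5 to 0.75 (42 in 454) and 0.150 from 0.75 (62 in 701). Slow over fast spots, meaning shares of 0.75 or more over shares under 0.25, gave a log2 ratio of -0.01 (-0.59 to 0.59). In this section 16.8% of 4250 genes differed at least 2-fold one way or the other between the same spots, and the interval of CA9 excludes a 2-fold difference. CA3, the slow-fiber carbonic anhydrase, was higher in slow spots there, with a log2 ratio of 2.15 (1.96 to 2.34).

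Fresh healthy muscle was mostly fast. CA9 was 0.459 per 10000 in its 1419 spots under a share of 0.25 (248 UMIs), 0.519 in 273 spots from 0.25 to 0.5 (57 UMIs) and 0.683 in 87 spots from 0.5 to 0.75 (27 UMIs), with overlapping intervals. The 14 spots with a share of 0.75 or more held 1 CA9 UMI, so the slow over fast ratio of -1.57 (-6.88 to 0.92) does not fix a direction, beside 32% of 3895 genes that differed at least 2-fold. With a single boundary at a share of 0.5 the ratio was 0.38 (-0.24 to 0.94).

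After tenotomy the counts were too low to place CA9 along the fiber range. At 2 weeks, 30 of the 34 UMIs lay in the 690 spots under a share of 0.25, at 0.0920 per 10000, and the slow over fast ratio was 0.78 (-4.57 to 3.37), where 34.3% of 3850 genes differed at least 2-fold. The 40 spots from 0.5 to 0.75 held 0 CA9 UMIs, which allows up to 0.125 per 10000. At 16 weeks, where MYH7 dominated, 7 of the 10 UMIs lay in the 634 spots with a share of 0.75 or more, at 0.0308 per 10000, and the ratio was -0.25 (-3.21 to 5.25), where 17.7% of 3654 genes did. Across spots, Spearman's rho of CA9 per UMI with the MYH7 share was 0.04, 0.01, -0.03 and 0.04 (1793, 2352, 841 and 1426 spots, which share a library and differ in depth). These correlations are too weak in such sparse counts to be read as a relation.

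**Figure D3:**
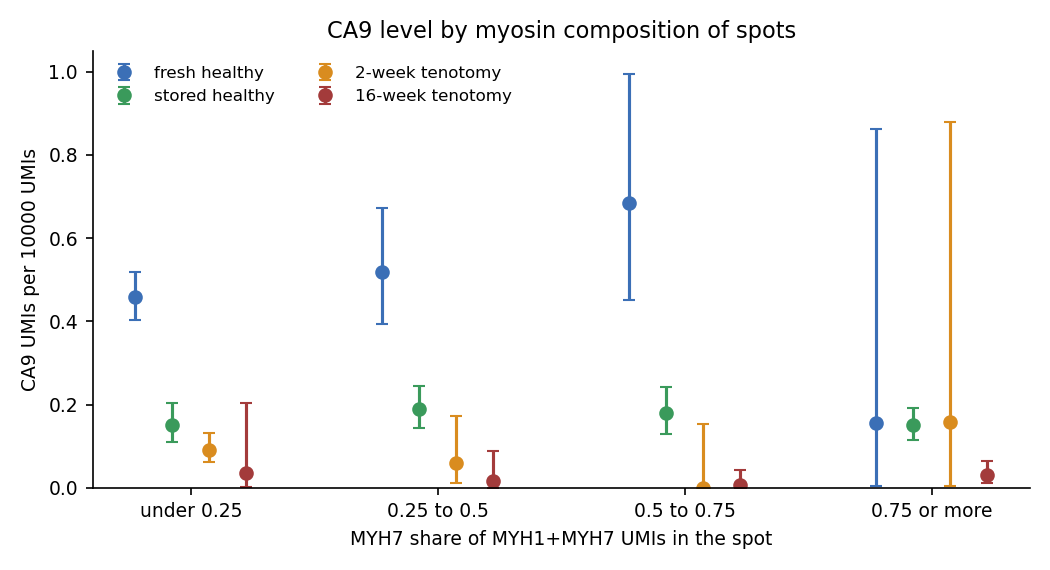
CA9 UMIs per 10000 UMIs of all genes in spots grouped by the MYH7 share of their MYH1+MYH7 UMIs, for the 4 sections. Points are levels summed over the spots of a group and bars are exact 95% Poisson intervals. The stored healthy section stays between 0.150 and 0.189 over the whole range, and the wide bars mark groups with few spots, such as the 14 fresh healthy spots at 0.75 or more.

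Spots with few myosin UMIs, under 10 of MYH1+MYH7, held 0 CA9 UMIs in every section (157, 88, 13 and 300 spots). They were shallow, with medians of 245, 310, 145 and 715.5 UMIs per spot, and whether they were also poor in muscle was not tested. A sum of 0 UMIs allowed levels up to 0.571, 0.548, 12.9 and 0.115 per 10000, above the level of each whole section, so a level lower than elsewhere could not be shown at this depth.

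COL1A1, a connective tissue gene, was used to divide the spots at 1 UMI. This low limit takes in most spots at 2 weeks, and spots with COL1A1 were deeper than those without (median 4876 against 4010 UMIs at 2 weeks), so it does not outline connective tissue. In fresh healthy muscle CA9 was 0.475 per 10000 in the 105 spots with COL1A1 and 0.474 in the 1845 without it, a log2 ratio of 0.00 (-0.66 to 0.60). In stored healthy muscle it was 0.135 in 664 spots with COL1A1 and 0.179 in 1776 without it, a ratio of -0.41 (-0.89 to 0.05). There the interval excluded 0 with at least 3 COL1A1 UMIs as the limit (-1.31, -2.95 to -0.07) and with mitochondrial genes left out of the total (-0.56, -1.04 to -0.10), but not with at least 5 (-1.36, -4.41 to 0.51). At 2 weeks the difference was larger than the counting error. There CA9 was 0.0567 in the 565 spots with COL1A1 and 0.157 in the 289 without it, with 17 UMIs in each set of spots, a log2 ratio of -1.47 (-2.53 to -0.41). Of 4123 genes with at least 20 UMIs, 1.24% were at least 2-fold lower in the same comparison (6.94%, 1.28% and 1.44% in the fresh healthy, stored healthy and 16-week sections). Only 3 genes lay below CA9, namely FOXJ3 (9 and 11 UMIs in the 2 sets of spots), GCC2 (16 and 19) and CUEDC1 (13 and 14). At such low counts, CA9's included, counting error can move a gene to the end of the ranking, so this rank is a description only. With at least 3 COL1A1 UMIs as the limit for a positive spot, the 2-week ratio was -1.04 (-2.48 to 0.19). With at least 5 it was -0.81 (-2.78 to 0.69), and both intervals include 0. The level of 0.157 in COL1A1-negative spots at 2 weeks stands beside 0.179 in such spots of stored healthy muscle, the ratio of -0.19 given above. At 16 weeks 2 UMIs in 382 spots with COL1A1 and 8 in 1344 without it gave a ratio of -0.26 (-3.53 to 2.07). The collagen gene itself was counted 128, 1129, 2146 and 671 times in the 4 sections. Whether the difference between COL1A1-positive and -negative spots at 2 weeks is itself larger than in other sections was not tested.

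The mitochondrial share of a spot can move with its fiber types and with RNA quality, and neither relation was tested here. Spots were ranked by that share and cut into terciles, 3 sets of equal size. In stored healthy muscle the lowest, middle and highest tercile held 58, 79 and 70 CA9 UMIs, and the highest over the lowest tercile gave a log2 ratio of 0.52 (-0.00 to 1.05) relative to all UMIs. The median gene of that comparison was at -0.51. More mitochondrial UMIs in the total lower the ratios of all other genes by the same amount. Leaving them out therefore raises each such ratio by as much as it raises that of CA9. Relative to non-mitochondrial UMIs the CA9 ratio was 0.85 (0.33 to 1.38), so on that scale CA9 was higher in mitochondria-rich spots of this section, while 22% of 4443 genes were at least 2-fold lower there relative to all UMIs and 0.473% at least 2-fold higher. In fresh healthy muscle the terciles held 114, 114 and 105 UMIs, and the ratio was -0.27 (-0.66 to 0.13) relative to all UMIs and 0.06 (-0.33 to 0.46) relative to non-mitochondrial UMIs. Genes at least 2-fold higher relative to all UMIs made up 0.324%, 1.33% and 2.86% of those tested in fresh healthy muscle, at 2 weeks and at 16 weeks.

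The tenotomized sections had their highest CA9 counts in the tercile richest in mitochondrial RNA, with intervals that include 0. The terciles held 8, 10 and 16 UMIs at 2 weeks, with a ratio relative to non-mitochondrial UMIs of 1.203 (-0.10 to 2.64), and 1, 2 and 7 UMIs at 16 weeks, with a ratio of 2.37 (-0.59 to 7.86). Depth moved with the share at 16 weeks, where the median spot had 1593 UMIs in the lowest and 3806.5 in the highest tercile, and its part was not tested. Spearman's rho of CA9 with the mitochondrial share was -0.01, 0.03, 0.06 and 0.08, over 1950, 2440, 854 and 1726 spots, too small to be read as a relation. With total UMIs rho was 0.23, 0.05, 0.03 and 0.09, the highest value being that of fresh healthy muscle, where spots with CA9 were also deeper.

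**Figure D4:**
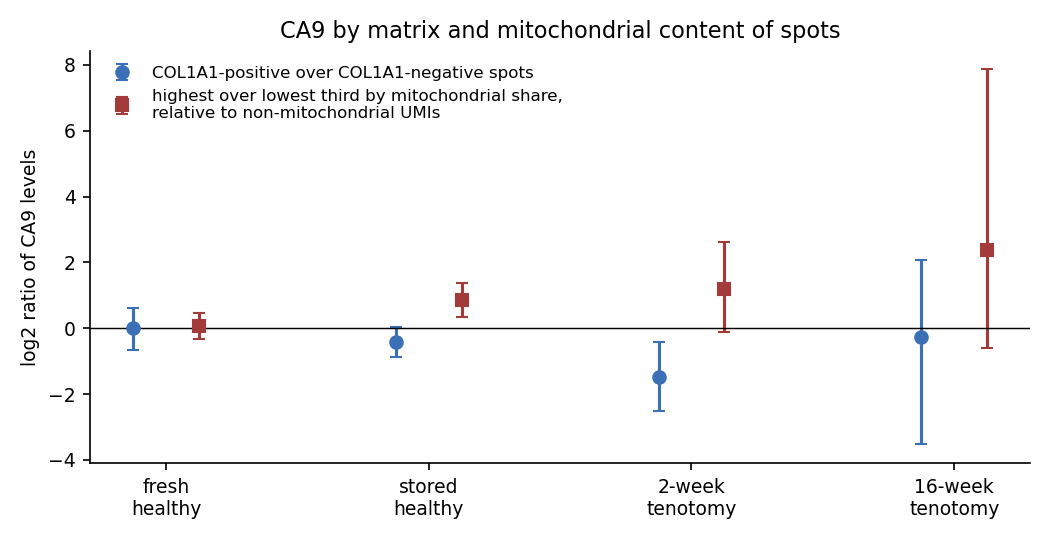
Log2 ratio of CA9 levels between spot groups within each section. Circles compare spots with and without COL1A1 (relative to all UMIs) and squares the terciles of spots with the highest and the lowest mitochondrial share (relative to non-mitochondrial UMIs), with exact 95% intervals. Intervals exclude 0 for COL1A1 at 2 weeks (-1.47) and for the mitochondrial share in stored healthy muscle (0.85).

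Spots with and without CA9 were also compared in the rest of their RNA. Of the 538 spots with CA9, 496 held a single UMI, so spots without a CA9 UMI can hold CA9 RNA unseen. The comparison can therefore miss differences, and likeness of the spots cannot be read from it. Among genes with at least 200 UMIs, the share that differed at least 2-fold between spots with and without CA9 was 0.0739% of 1354 in fresh healthy and 0.325% of 1848 in stored healthy muscle, 2.78% of 1188 at 2 weeks and 25.9% of 1504 at 16 weeks. These values rest on 301, 194, 33 and 10 spots with CA9. With fewer spots more genes can pass 2-fold through counting error, so the sections cannot be compared by these percentages. In fresh healthy muscle the lowest genes in CA9 spots were MYH11 and ACTA2, of smooth muscle, with SNCG, MRPS9 and NAP1L1, at log2 ratios from -0.92 to -0.68. In stored healthy muscle the lowest were MMP12 (3 UMIs in spots with CA9 and 252 in the others) and GPNMB (10 and 560). Both are typical of activated macrophages, but other macrophage genes went both ways there, such as C1QA at 0.52 and C1QB at -0.38. Whether MMP12 and GPNMB UMIs clump in spots was not tested, so CA9 spots cannot be called poor in macrophages. MYH11 and the lymphatic chemokine CCL21 were also among the lowest. At 2 weeks ACTC1, the cardiac actin that regenerating fibers express, was highest with 99 UMIs in spots with CA9 and 1116 in the others, a log2 ratio of 1.05 (0.74 to 1.34). CHI3L1 (1 and 289 UMIs) and GLNB2 (14 and 1792 UMIs) were lowest there. The ACTC1 interval treats UMIs as independent and is too narrow if they clump in spots. At 16 weeks the 10 spots with CA9 held 0 UMIs of SFRP2, MYL4, NES, VTI1B and KERA, which the other spots held between 441 and 957 times. These were the lowest-ranked genes, and 10 spots hold few of the section's UMIs, so few UMIs of these genes could be seen there. The upper ends of their log2 intervals ran from -1.74 (SFRP2) to -0.62 (KERA), and these intervals too are too narrow if UMIs clump.

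Lists of cell type markers were summed over the same spots. The fibroblast and tendon list (8 of 11 genes with a feature) had log2 ratios of -0.24, -0.28, -0.63 and -1.79 in CA9 spots over other spots. The macrophage list (9 of 9) had -0.21, -0.30, -0.43 and -1.39, and the smooth muscle list (3 of 5) -0.31, -0.26, -0.47 and -0.99. The fibroblast and tendon list was lower in CA9 spots of all 4 sections, also without any 1 of its members. The macrophage intervals of fresh healthy muscle and of 2 weeks include 0, and in stored healthy muscle the list rested on GPNMB, without which it was at 0.12 (-0.15 to 0.37). The smooth muscle list holds the fiber gene DES too. Without DES it was at -0.74, -0.60, -1.08 and -3.08, with intervals below 0 in all 4 sections, at 16 weeks from 3 UMIs in spots with CA9. Without ACTA2, where DES made up most of the UMIs left, the intervals in stored healthy muscle, at 2 weeks and at 16 weeks include 0 (-0.18, -0.14 and -0.23). The slow fiber list (9 of 11) had 0.03, 0.02, -0.14 and 0.55 and the fast fiber list (6 of 12) -0.06, -0.11, 0.05 and -0.35, with no common direction. The endothelial list (6 of 6) had 0.03, 0.03, -0.32 and -1.18 and the adipocyte list (4 of 8, with LEP at 0) 0.03, 0.03, -0.53 and -0.85. LPL made up most UMIs of the adipocyte list. Without LPL the CA9 spots held 0, 4, 0 and 4 UMIs of it, against 17, 20, 29 and 382 elsewhere, too few to compare. At 16 weeks the ratio without LPL was -0.30 (-2.19 to 1.07). The regenerating fiber list (5 of 7) had -0.50, -0.34, 0.73 and 0.35, and ACTC1 made up most of its UMIs. Without ACTC1 the ratio was 0.31 (-0.11 to 0.70) at 2 weeks, and at 16 weeks the CA9 spots held 0 UMIs of the other members against 731 elsewhere. In fresh healthy muscle the ratio without MYH8 was -0.17 (-0.59 to 0.23). Nerve and neuromuscular junction markers were too few to compare, with between 0 and 15 UMIs in CA9 spots. Spots with CA9 were deeper than the others, and the part of depth in these ratios was not tested. The intervals of the lists treat UMIs as independent and are too narrow where UMIs clump in spots. Clumping of the list members was not tested, so intervals that exclude 0 are a description only.

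The genes whose pattern across spots was most like that of CA9, by mean Spearman's rho over the 4 sections among 1034 genes with at least 200 UMIs in each, were COX1 (0.08), COX3 (0.07), MDH1 (0.07), LMOD3 (0.07) and PPP1R3A (0.06). COX1 and COX3 are mitochondrial subunits of cytochrome oxidase, MDH1 is cytosolic malate dehydrogenase, LMOD3 is a thin filament protein and PPP1R3A anchors a phosphatase to glycogen in muscle. All these correlations were weak, over spots that share a library and differ in depth.

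Of the other carbonic anhydrases, 7 of 15 listed had a feature, and CA3 and CA2 reached 20 UMIs in comparisons between sections. CA3 had 771, 2920, 944 and 1821 UMIs. Its log2 ratio was 1.08 (0.97 to 1.2005) for stored over fresh healthy, -0.01 (-0.12 to 0.10) for 2 weeks and 0.72 (0.64 to 0.81) for 16 weeks over stored healthy, the latter below the median gene's 0.77. CA3 therefore followed a different order from CA9, as did MYH7. CA2, a highly active cytosolic enzyme, was counted 47, 21, 37 and 10 times, with log2 ratios of -1.999 (-2.82 to -1.23), 2.44 (1.63 to 3.28) and 0.33 (-0.92 to 1.48) in the same comparisons. Its UMIs lay in fast spots in fresh healthy muscle (41 against 0 in slow spots) and at 2 weeks (37 against 0), where the slow spots were few. The membrane enzyme CA14 had 3, 4, 3 and 2 UMIs and the cytosolic CA13 0, 4, 7 and 9. CA7 had at most 1 UMI in a section, and CA10 and CA12 had 0.

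Proteins that carry protons, lactate and bicarbonate across the membrane work beside carbonic anhydrases of the cell surface. Of 14 such genes listed, 10 had a feature and 4 reached 20 UMIs at 16 weeks and in stored healthy muscle together. Of these, 2 were at least 2-fold higher at 16 weeks and 0 lower, beside 46.9% and 2.36% of the 6025 genes with at least 20 UMIs. SLC4A3, an anion exchanger, had 12, 16, 18 and 90 UMIs in the 4 sections and a log2 ratio of 3.89 (3.12 to 4.76) at 16 weeks. The anion exchanger SLC4A2 had a ratio of 1.65 (1.07 to 2.25), while the lactate carrier SLC16A1 stood at 0.08 (-0.50 to 0.64) and the bicarbonate carrier SLC4A7 at 0.20 (-0.71 to 1.06). The median of the 4 was 0.94, near the 0.93 of all genes tested. At 2 weeks 1 of 4 was at least 2-fold higher and 0 lower, beside 27.6% and 2.11% of 5686 genes.

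Of 9 subunits and regulators of the hypoxia-inducible factors, 4 had a feature. HIF1A, the oxygen-labile subunit, had 4, 17, 12 and 34 UMIs, with a log2 ratio of 2.40 (1.52 to 3.33) at 16 weeks over stored healthy. Its partner ARNT was at 1.31 (0.23 to 2.39), EPAS1 at 0.62 (-0.44 to 1.63) and the hydroxylase HIF1AN at 0.69 (0.41 to 0.96), beside 0.93 for the median gene. Of these 4 genes, 2 were at least 2-fold higher and 0 lower, beside 46.9% and 2.36% of all genes. Of 23 other target genes of low oxygen, 15 had a feature and 11 reached 20 UMIs in that comparison. Among them 6 were at least 2-fold higher at 16 weeks and 0 lower, with a median of 1.34 beside 0.93 over all genes and the 46.9% given above. DDIT4, an inhibitor of growth signaling, was at 4.03 (2.66 to 5.75), ERO1A, an oxidase of the endoplasmic reticulum, at 2.12 (1.57 to 2.69), BNIP3L, of mitochondrial clearance, at 2.02 (1.28 to 2.79) and the glucose carrier SLC2A1 at 1.34 (0.98 to 1.71). P4HA2 was at 1.51 (0.31 to 2.72) and HK2 at 1.37 (1.13 to 1.60). Less than 2-fold higher were P4HA1 at 0.96 (0.53 to 1.39), VEGFA at 0.40 (-0.19 to 0.97) and ANKRD37 at 0.17 (-0.27 to 0.59). The glycolytic enzymes ALDOA and TPI1 were at -0.76 (-0.78 to -0.74) and -0.12 (-0.21 to -0.03). At 2 weeks 2 of 10 were at least 2-fold higher and 0 lower, beside 27.6% and 2.11% of all genes, with a median of 0.62 beside 0.63. For stored over fresh healthy 1 of 10 was at least 2-fold higher and 2 were lower, beside 9.36% and 11% of 5756 genes. For 16 over 2 weeks 5 of 11 were at least 2-fold higher and 2 lower, beside 18.1% and 5.26% of 5534 genes.

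**Figure D5:**
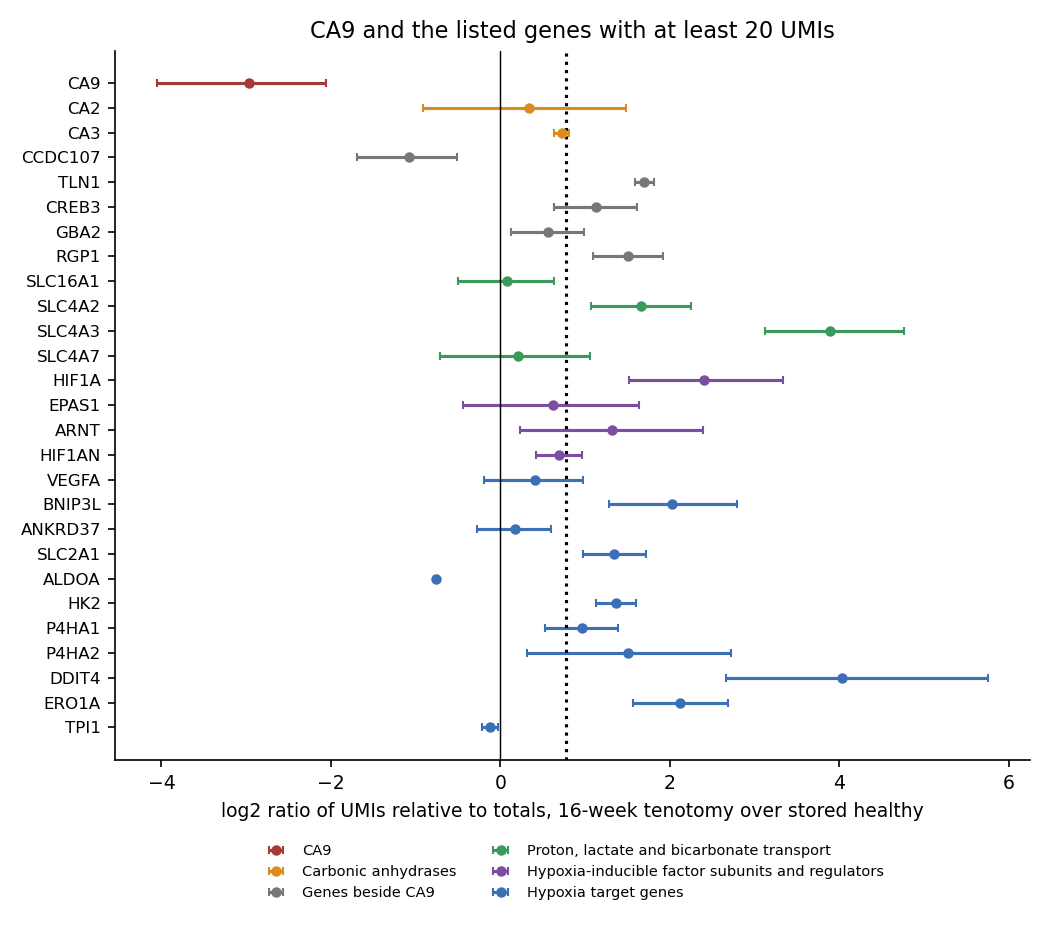
Log2 ratio of UMIs relative to totals, 16-week tenotomy over stored healthy, for CA9 and the listed genes with at least 20 UMIs in the sections together, colored by list. Bars are exact 95% counting intervals and the dotted line is the median gene (0.77, genes with at least 200 UMIs). CA9, at -2.97, lies below all the other genes plotted, of which CCDC107 (-1.08) is the next lowest.

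The genes next to CA9 in the rabbit RefSeq annotation (assembly mOryCun1.1, used for gene order only) are ARHGEF39, a guanine nucleotide exchange factor, on one side and TPM2, a tropomyosin of muscle thin filaments, on the other. TPM2 has 0 features of that name in the count table, so no level of it is given, and whether any of its molecules were counted under CA9 was not tested. ARHGEF39 had 0, 2, 1 and 0 UMIs. CCDC107, the next gene on that side, had 160, 168, 57 and 30 UMIs and a log2 ratio of -1.08 (-1.70 to -0.52) at 16 weeks over stored healthy, lower like CA9 but less so, while at 2 weeks its ratio was 0.06 (-0.40 to 0.50). TLN1, the integrin adaptor talin beyond TPM2, had 510, 1146, 511 and 1406 UMIs and a ratio of 1.70 (1.58 to 1.81) at 16 weeks.

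Barcodes and positions are listed apart, yet the 4 capture areas share 1 set of barcodes, and in 15 of 15 combinations of sections the number of barcodes equaled the number of positions under tissue, over 2931 barcodes. Groups of spots could therefore be placed without a key. At the 512 positions under tissue in all 4 sections CA9 was 0.468 per 10000 in fresh healthy (80 UMIs) and 0.209 in stored healthy muscle (55), 0.0786 at 2 weeks (20) and 0.0118 at 16 weeks (2). The 16-week value has an interval of 0.00143 to 0.0425. The order of sections was the same in this subset, which is part of the same counts. Equal positions on the slide were not shown to be equal places in the muscles, so this is no separate support. Within stored healthy muscle, the 602 positions covered by that section alone had 0.111 (0.0784–0.153) and the 260 shared with the fresh healthy section alone had 0.219 (0.144–0.319). These intervals overlap. Other groups of that section ran from 0.0940 (199 positions) to 0.908 (2 positions with 3 UMIs). Depth and fiber composition of the groups were not compared, so no regional difference is read from them.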

How the data were processed

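CA9 was examined in 4 Visium sections of rabbit supraspinatus, 1 section per condition. Per the file headers and the study's methods, the authors aligned images by hand and used Space Ranger 1.2.0, with an OryCun2.0 reference built from Ensembl gene models, to align reads and to merge those with the same UMI. The deposited counts are not normalized and cover spots under tissue. A count is therefore a number of molecules, and near-identical or adjacent genes can share reads where the annotation is incomplete.

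All spots and genes were kept, and doublets were not called, as spots are regions of tissue. Sections and spot groups were compared as log2 ratios of UMI sums relative to totals, with exact conditional intervals. Sums carry exact Poisson and shares Clopper-Pearson intervals, all at 95% and for counting error only, and no p-value was computed. The intervals of sums and ratios treat UMIs as independent, so they are too narrow for genes whose UMIs clump in spots. A sum of 0 allows up to 3 counts. The ratios over all genes, which give the percentages and ranks, had 0.5 UMI added, with at least 200 UMIs per gene between sections and between spots with and without CA9, and at least 20 in other spot groups and in the lists. Thinning drew UMIs without replacement. Mitochondrial genes were the 37 with consecutive identifiers.

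The genes named were CA9, MYH7, MYH1, COL1A1, the members of the lists, the 5 genes most like CA9 across spots and the 5 highest and 5 lowest genes in spots with CA9, of which 1 is not reported here. NDUFAF2, MMP12, FOXJ3, GCC2 and CUEDC1 were named after their values were seen, as the genes below CA9. CA9, the lists and the comparisons were chosen with earlier results of these data known. The work was done in Python 3.11.15 with pandas 2.3.3, scipy 1.17.1, numpy 2.4.6 and matplotlib 3.10.9, and the calculations were tested on simulated data.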

Additional observations from a re-analysis of the deposited data

How the results depend on the processing

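No paired analysis was possible because there is 1 section per condition. Leaving mitochondrial genes out of the total raised the CA9 level to 0.936, 0.325, 0.126 and 0.0322 per 10000 in the 4 sections, the last within its counting interval. Asking for 2 CA9 UMIs gave 1.49%, 0.492%, 0.117% and 0% of spots in the 4 sections. Shares also moved with depth. Thinning to 500 UMIs gave 2.69% and 1.05% of spots in the fresh and stored healthy sections, thinning to 2000 UMIs 9.54% and 2.87%, and no thinning 15.4%, 7.95%, 3.86% and 0.579% in the 4 sections.

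Of 40 alternative values of the ratio between sections, 33 stayed within the counting interval and 1 changed sign. In spots with a MYH7 share of 0.75 or more the log2 ratio was -0.041 for stored over fresh healthy and 0.071 for 2 weeks over stored healthy, each from 1 CA9 UMI in 1 of the sections. In spots with a share under 0.25 it was -2.05 for 16 weeks over stored healthy, again with 1 UMI at 16 weeks. Relative to MYH1+MYH7 UMIs it was -1.18 for stored over fresh healthy, -2.55 for 2 weeks over stored healthy and -0.77 for 16 over 2 weeks. In COL1A1-negative spots it was -0.19 for 2 weeks over stored healthy. The COL1A1 ratio in stored healthy muscle was -1.31 with at least 3 COL1A1 UMIs and -1.36 with at least 5. The cause of these shifts was not tested.

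With at least 200 UMIs, members of the lists past 2-fold numbered 3 instead of 6 for stored over fresh healthy, 1 instead of 6 and 2 instead of 10 for 2 and 16 weeks over stored healthy, and 3 instead of 10 for 16 over 2 weeks, since fewer members were tested. These counts pool lists and both directions and are not set beside a share over all genes. They show only how the limit moved them and say nothing about the members. With at least 2 CA9 UMIs per positive spot, genes past 2-fold numbered 63, 356 and 379 in the fresh healthy, stored healthy and 2-week sections instead of 1, 6 and 33, with fewer spots, and no spot qualified at 16 weeks. Fewer spots let more genes pass 2-fold through counting error, so these numbers are not read as differences between the spots. Ratios by COL1A1 or mitochondrial share within ranges of the MYH7 share, or with more COL1A1 UMIs, had no value where a spot group held 0 CA9 UMIs. The comparisons in spots with at least 50 myosin UMIs, relative to myosin UMIs, in COL1A1-negative spots, of thinned section sums and of marker lists without each member were added after seeing the data. The 34 and 10 CA9 UMIs of the tenotomized sections limit every statement within them.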

Other observations

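ALAS2, the first enzyme of heme synthesis in red cell precursors and the only blood marker of its list with a feature, had 75 UMIs in 40 spots of the stored healthy section. Of these, 18 lay in 7 spots with CA9, up to 7 in 1 spot, a log2 ratio of 1.74 (0.89 to 2.53) over spots without CA9. ALAS2 UMIs were clumped, with up to 12 in 1 spot of that section. The interval treats them as independent and is therefore too narrow, so no relation to CA9 can be read from it. In the fresh healthy section 6 of 40 ALAS2 UMIs lay in spots with CA9, a ratio of -0.56 (-2.10 to 0.71). At 2 and 16 weeks 0 of 13 and 0 of 80 lay there.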
